A study of Mus musculus with 2 samples.

Results

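The 7 genes described here are typical of regulatory T cells of the mouse: Foxp3, Ikzf2, Ikzf4, Izumo1r, Gpr83, Nrp1 and Capg. They were chosen by name, and every non-control probe whose transcript accession belonged to them in RefSeq was taken. This gave 13 probes of the 41164 with a signal free of outlier flags on both arrays, dim ones included, and 7 genes of the 18430 named ones. The study measured total RNA of Menin KO cells and Menin WT cells on 1 one-colour array each. Menin, the product of Men1, is a nuclear protein that works with the MLL histone methyltransferases. Both samples were CD4 T cells from the spleen of female C57BL/6J mice, enriched as naive cells by CD4 and CD62L. Each was activated for 2 days with antibodies to the T cell receptor beta chain (3 µg/ml) and CD28 (1 µg/ml) plus IL-2 at 2.5 ng/ml, and then held in the same IL-2 for 3 days. How Men1 was deleted, the age of the mice and the number of mice behind each array are not given in the sources used here. No regulatory T cell marker was named in the selection of the cells.

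Regulatory T cells are CD4 T cells that restrain other immune cells. Foxp3 is the transcription factor that defines them, Helios and Eos (encoded by Ikzf2 and Ikzf4) are Ikaros family zinc finger factors, and Eos is a partner of Foxp3 in gene repression. The surface proteins encoded by Izumo1r, Gpr83 and Nrp1 mark many of these cells in mice, and Capg encodes a protein that caps actin filaments. Apart from Foxp3, the genes are not exclusive to the lineage, and activated or naive T cells of other kinds can transcribe several of them.

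Values are the scanner's processed signals on a linear scale, and differences are log2 of KO over WT after each array was scaled to its 75th percentile. With 1 array per genotype there is no biological error, no test and no p-value. The only errors available are technical. The scanner software gives an error for each spot, and probes printed at least 5 times gave a spot-to-spot SD of the log2 difference of 0.314 at signals under 100 (36 probes) and 0.0541 at brighter ones (110 probes). Every probe of the 7 genes was printed once. A probe counted as measured where the scanner marked it well above background. The lowest such signal was 10.4 on the KO array and 14.0 on the WT array. For a probe measured on just 1 of the arrays, a bound is given in place of the difference. Such a bound is not a sure minimum, since an Ikzf2 probe that read 12.0 in KO was not marked well above background.

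The targeted gene was checked first. Men1 had a signal of 459 in KO and 1081 in WT, a log2 difference of -1.25 from 1 probe whose place relative to the deletion is not known here. Transcripts of T cells were present: all 10 listed T cell markers were measured on both arrays, for example Cd3d (55593 in KO, 62714 in WT) and Cd4 (279 in KO, 443 in WT). Of the 10, 2 were at least 2-fold lower in KO, Trat1 (log2 difference -3.79) and Cd5 (-1.73), against 5.14% of all genes. Most of the 10 are not particular to CD4 T cells, and their detection does not show purity. Cd8a had 3213 in KO and 312 in WT, and markers of other cells are given below.

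Of the 7 genes, 4 were at least 2-fold lower in KO (Gpr83, Izumo1r, Ikzf2 and Foxp3), 3 were under 2-fold (Ikzf4, Nrp1 and Capg), and no gene of the 7 was 2-fold or more higher. Among all 13515 named genes with a value, 5.14% were at least 2-fold lower and 10.8% at least 2-fold higher. The median of the 7 genes was -1.51 with Foxp3 at its bound, and the median of all genes was -0.0052. The median of the 7 was -0.51 after normexp with aberrant backgrounds replaced, -0.98 over the 6 genes measured on both arrays and -1.07 with 1 detection limit for both arrays. The normexp setting adds 50 to every signal, which shrinks the differences of dim probes. The list was chosen with results of these arrays known, so this contrast describes the 7 genes and tests nothing. By probe, 10 of the 13 were measured on both arrays and 3 in WT only. At least 2-fold lower, bounds included, were 6 probes, against 6.17% of the 26073 probes with a difference or a bound. None was at least 2-fold higher, against 8.54% of the same 26073.

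**Figure D1:**
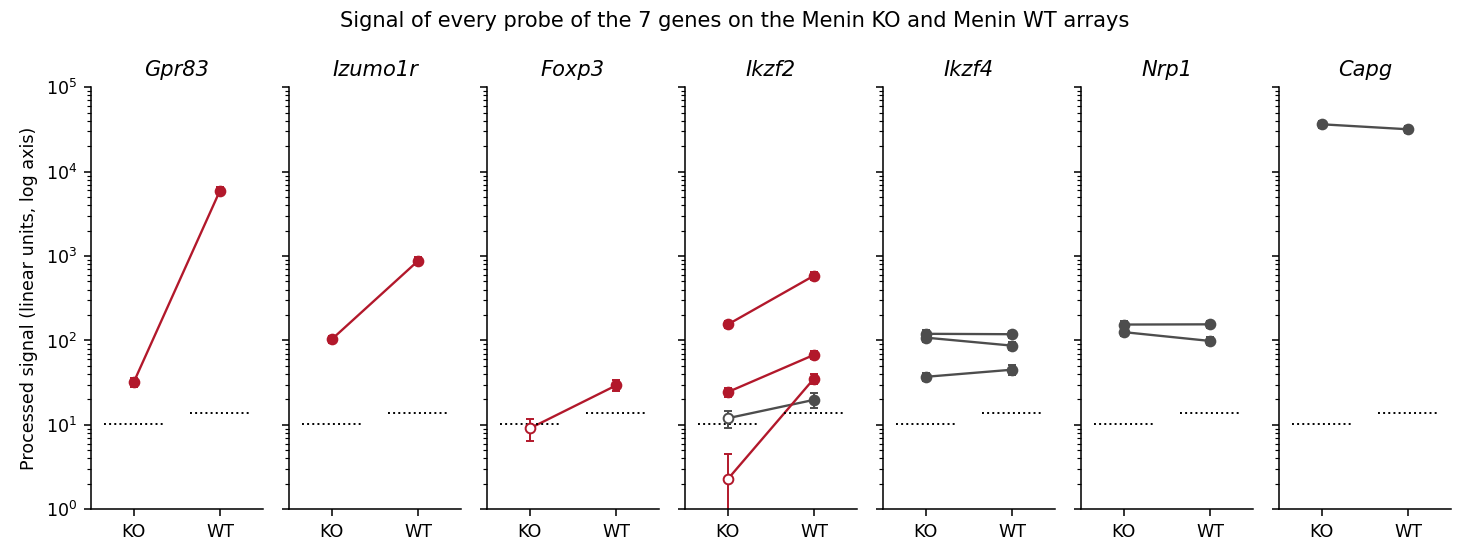
Processed signal (linear units on a log axis) of all 13 probes of the 7 genes, KO left and WT right, each line 1 probe. Bars are the scanner's error for the spot (1 runs off the axis), open circles are spots not well above background, dotted marks are the lowest signal well above background on each array, and red lines are probes at least 2-fold lower in KO, bounds included. Gpr83 was 32.2 in KO and 5965 in WT, while Capg was 36419 in KO and 31793 in WT.

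Gpr83 encodes a G protein-coupled receptor that is abundant on mouse regulatory T cells and in the brain. Its probe read 32.2 ± 3.94 in KO and 5965 ± 596 in WT (scanner error, 1 spot each). It was bright in WT and dim in KO, though well above background on both arrays. The difference of -7.55 ± 0.23 on the log2 scale, a fold of 187, was the lowest of the 12112 named genes measured on both arrays, with predicted genes and clone names left out. The next in that order were Dapl1 (log2 difference -6.98, with 16.8 in KO and 2109 in WT) and Pdlim4 (-5.33, with 62.0 in KO and 2469 in WT). The size of the fold depends on the dim KO signal: it was -5.97 after a normexp background correction with aberrant local backgrounds replaced. In bulk RNA, fewer cells of a type and less RNA per cell cannot be told apart, here and for every gene that follows.

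Izumo1r encodes a folate receptor-like protein anchored to the membrane, known as FR4 on mouse regulatory T cells and as Juno on the mouse egg, where it binds the sperm protein Izumo1. Its probe read 103 ± 10.6 in KO and 876 ± 87.7 in WT. Both signals were well above background, and the difference was -3.10 ± 0.21, a fold of 8.56. It was 24th from the lowest in the same order, between Igsf23 (-3.10, with 456 in KO and 3884 in WT) and Ms4a4d (-3.06, with 116 in KO and 958 in WT). This likeness is a difference over 2 arrays only. Of the other genes of its family and of egg recognition, Folr1 was measured with 98.4 in KO and 116 in WT (log2 difference -0.25). Neither array measured Folr2 or Izumo1 well above background.

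Gpr83 and Izumo1r are next to each other in the gene order of mouse chromosome 9 (RefSeq, GRCm38.p6), on opposite strands. The genes around them did not share the size of their difference. Ankrd49 had 584 in KO and 727 in WT (log2 difference -0.33), and Mre11a, which encodes a DNA repair nuclease, had 3533 in KO and 4245 in WT (-0.28). On the other side Panx1, which encodes a membrane channel, had 15094 in KO and 23384 in WT (-0.64), and Vstm5 had 70.7 in KO and 35.7 in WT (0.97). None of these 4 was at least 2-fold apart, and Hephl1 had no named probe. Counted over the 3 protein-coding genes on each side of all 7 genes, 36 neighbours were found and 28 had a value. Of the 28, 4 were at least 2-fold lower, 3 at least 2-fold higher, 19 between and 2 had bounds under 2-fold, against 5.14% lower and 10.8% higher over all genes.

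**Figure D2:**
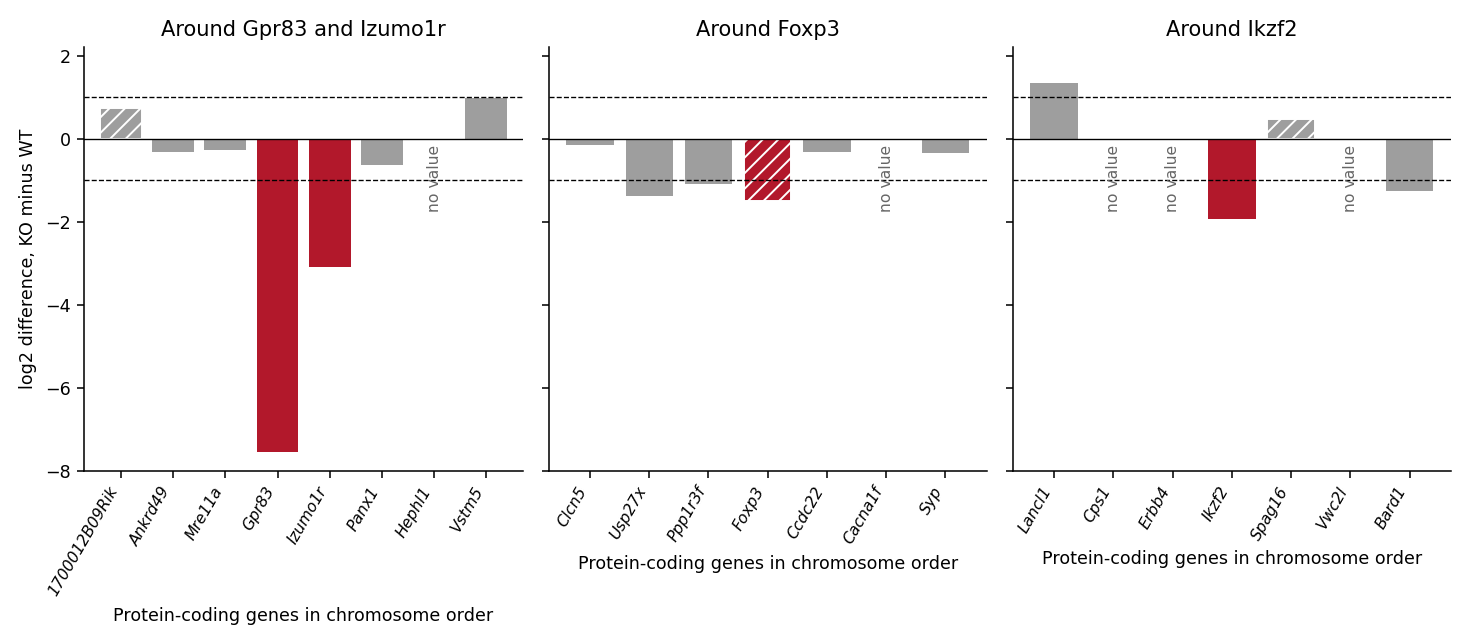
Log2 difference (KO minus WT) of protein-coding genes in chromosome order around Gpr83 and Izumo1r, around Foxp3 and around Ikzf2. Red bars are genes of the 7, grey bars their neighbours, hatched bars bounds, and dashed lines a 2-fold difference; Gpr83 (-7.55) and Izumo1r (-3.10) stand beside neighbours between -0.64 and 0.97.

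The bases before the start of both genes are shown because the neighbours were the lowest of the 7. RefSeq windows were found for 5 of the 7 genes (6 windows, not Ikzf2 and Ikzf4), and the 250 bases before each start were searched on both strands for the forkhead core GTAAACA, the AP-1 and Bach core TGANTCA, the Ikaros core TGGGAA, the STAT core TTCNNNGAA and the TATA core TATAAA. Capitals mark the matches.
Gpr83, GRCm38.p6 chr9:14859960-14860209, plus strand: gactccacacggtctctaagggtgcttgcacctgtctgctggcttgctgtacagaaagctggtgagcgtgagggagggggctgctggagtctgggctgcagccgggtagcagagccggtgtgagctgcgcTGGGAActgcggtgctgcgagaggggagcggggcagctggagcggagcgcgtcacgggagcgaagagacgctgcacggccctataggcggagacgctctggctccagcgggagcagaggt
Izumo1r, GRCm38.p6 chr9:14903768-14904017, minus strand: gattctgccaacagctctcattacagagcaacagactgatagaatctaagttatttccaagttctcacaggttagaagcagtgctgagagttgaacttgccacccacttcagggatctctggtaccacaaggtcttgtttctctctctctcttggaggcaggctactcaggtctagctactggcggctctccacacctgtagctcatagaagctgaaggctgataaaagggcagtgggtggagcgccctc
The Gpr83 window held the Ikaros core once, 120 bases before the start, and the Izumo1r window held none of the 5 motifs. The Ikaros core was present in 21.6% of the 32851 windows of this length, the AP-1 and Bach core in 6.75% and the forkhead core in 3.17%. The window of Capg, a gene with nearly equal signals on the arrays, held the Ikaros core at 138 and at 58 bases before its start. A match is a run of letters and not a shown binding site.

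Foxp3 had 1 probe, which read 9.10 ± 2.62 in KO and 29.3 ± 4.38 in WT. In KO it did not reach the well above background mark, and it was dim in WT, 2.09 times the lowest measured signal there, so its signal was close to the limit of the arrays in both samples. The signal of 1 probe does not give the amount of transcript: on the WT array the Ikzf2 probes read from 19.8 to 586. The 7 genes are thus named for the cells they are known from, and the arrays do not show by Foxp3 whether such cells were plentiful or few. The bound was 2.85-fold lower in KO (log2 difference -1.51), and the measured signals differed by -1.70 ± 0.47. The bound was -1.07 with the same detection limit for both arrays and -0.51, under 2-fold, after normexp with aberrant backgrounds replaced. That last setting adds 50 to every signal, more than the processed Foxp3 signal on either array. The offset shrinks the difference, so this value cannot tell whether Foxp3 was 2-fold lower. The share of genes at least 2-fold lower was 6.28% among the 3612 genes with a WT signal under 100, 5.92% at 100 to 1000 and 4% at 1000 or more. On the X chromosome, 2 genes near it were at least 2-fold lower: Usp27x had 13.0 in KO and 33.4 in WT (-1.37), and Ppp1r3f had 73.8 in KO and 156 in WT (-1.09). The Usp27x signal in KO was near the lowest measured one there, 10.4. Ccdc22, its neighbour on the other side, was bright, with 4141 in KO and 5153 in WT (-0.33). Clcn5 (-0.14) and Syp (-0.34), further out, were under 2-fold too, and Cacna1f was not well above background.

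The bases before the 2 starts that RefSeq gives for Foxp3 are shown since they differ in the motifs they hold.
Foxp3 upstream start, GRCm38.p6 chrX:7579426-7579675, plus strand: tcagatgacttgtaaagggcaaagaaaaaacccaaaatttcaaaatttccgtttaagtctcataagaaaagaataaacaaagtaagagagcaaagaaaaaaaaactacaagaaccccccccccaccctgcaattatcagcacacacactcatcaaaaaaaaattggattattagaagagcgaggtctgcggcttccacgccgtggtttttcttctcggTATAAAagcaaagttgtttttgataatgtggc
Foxp3 downstream start, GRCm38.p6 chrX:7580233-7580482, plus strand: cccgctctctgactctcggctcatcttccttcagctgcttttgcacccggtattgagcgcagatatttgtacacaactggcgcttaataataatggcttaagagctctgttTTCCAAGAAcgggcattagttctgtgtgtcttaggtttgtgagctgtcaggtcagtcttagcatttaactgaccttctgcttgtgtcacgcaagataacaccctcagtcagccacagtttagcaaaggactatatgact
The upstream window held the TATA core 32 bases before the start, a motif found in 12.4% of all windows. The other held the STAT core 139 bases before the start, found in 7.02% of windows. Neither held the forkhead core or the AP-1 and Bach core. The array probe does not tell these starts apart here, since its position in the transcript is not given in the files.

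Of the other forkhead box P genes, Foxp1, a factor of T cell quiescence, was at least 2-fold lower with 1140 in KO and 5469 in WT (log2 difference -2.28, and -2.13 by its other probe). Foxp4 had 35.9 in KO and 36.9 in WT (-0.05). Foxp2 gave no usable bound.

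Ikzf2, encoding Helios, was read by 4 probes, and the 2 measured on both arrays were lower in KO. The brightest read 155 ± 15.7 in KO and 586 ± 58.7 in WT, a log2 difference of -1.93 ± 0.21 or 3.82-fold. The next read 24.5 ± 3.20 in KO and 67.6 ± 7.29 in WT, a difference of -1.48 ± 0.24. The other 2 probes were measured in WT only. The first of them read 12.0 in KO and 19.8 in WT, a bound of -0.74. Its measured difference was -0.74 ± 0.44, under 2 scanner errors. The second read 2.28 in KO and 35.4 in WT, a bound of -1.78, with a measured difference of -3.97 ± 1.45. The 2 probes measured on both arrays shared a direction and differed in size. A bound of the wrong sign was given no value, so the direction of the other 2 was set in advance, and 1 of their bounds was under 2-fold. The 2 probes measured on both arrays lay 0.46 apart, where the median gap over 4414 genes with several such probes was 0.144 and the 90th percentile 0.56. In the order of differences Ikzf2 was 115th from the lowest, between Ifnar2 (1059 in KO, 4011 in WT) and Ccdc74a (20.7 in KO, 77.6 in WT).

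Ikzf4, encoding Eos, did not follow Ikzf2. Its 3 probes read 120 ± 12.2 in KO and 119 ± 12.2 in WT, then 108 ± 11.0 in KO and 86.9 ± 9.16 in WT, then 37.1 ± 4.42 in KO and 45.0 ± 5.59 in WT. The log2 differences of 0.0033, 0.30 and -0.29 had scanner errors of 0.21 to 0.25, so the probes disagreed in sign and each difference was under 2 scanner errors. Across the Ikaros family only Ikzf2 was at least 2-fold apart. Ikzf1, encoding Ikaros, had 3200 in KO and 5014 in WT (log2 difference -0.66), Ikzf5 271 in KO and 371 in WT (-0.47), and Ikzf3, encoding Aiolos, 143 in KO and 154 in WT (-0.12).

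Nrp1 encodes neuropilin 1, a co-receptor for semaphorins and vascular endothelial growth factors that marks thymus-derived regulatory T cells in mice. Its 2 probes read 154 ± 15.6 in KO and 155 ± 15.8 in WT, and 126 ± 12.7 in KO and 98.8 ± 10.3 in WT. The differences of -0.02 ± 0.21 and 0.33 ± 0.21 were both under 2-fold. Its relative Nrp2 was different: it had 1493 in KO and 165 in WT, a log2 difference of 3.17 from 1 probe. Among 16 measured neuropilin, ligand and plexin genes, 5 were at least 2-fold apart, 3 of them higher and 2 lower, and the list median of 0.05 ranged from -0.29 to 0.24 over the processing alternatives. A further 10 were under 2-fold and 1 had such a bound. Among all genes with a value, 10.8% were at least 2-fold higher and 5.14% lower. Besides Nrp2, the largest were bounds. Sema3b, a secreted semaphorin gene, had 5.44 in KO and 285 in WT, a bound of 27.7-fold lower. The receptor gene Flt1 had 39.8 in KO and 13.1 in WT, a bound of 2.82-fold higher. The receptor gene Kdr had 7.67 in KO and 26.8 in WT, a bound of 2.60-fold lower. Flt1 was measured in KO only, and Sema3b and Kdr in WT only.

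Capg, the actin capping gene, was bright and nearly equal on the arrays. It read 36419 ± 3642 in KO and 31793 ± 3179 in WT, a log2 difference of 0.18 ± 0.20. Other genes of the gelsolin family differed more. Scin, encoding an actin-severing protein, had 2095 in KO and 67.3 in WT (log2 difference 4.95), Avil 170 in KO and 30.4 in WT (2.47), and Gsn, encoding gelsolin, 43557 in KO and 17388 in WT (1.31). The 8 others of the 11 in this list, Capg among them, were under 2-fold, from Vil1 (-0.74) to Svil (0.64), with Flii at 0.28, Vill at 0.32, and the capping protein genes Capza1, Capzb and Capza2 at 0.13, 0.32 and 0.40. The list median was 0.32, and 10.8% of all genes were at least 2-fold higher.

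**Figure D3:**
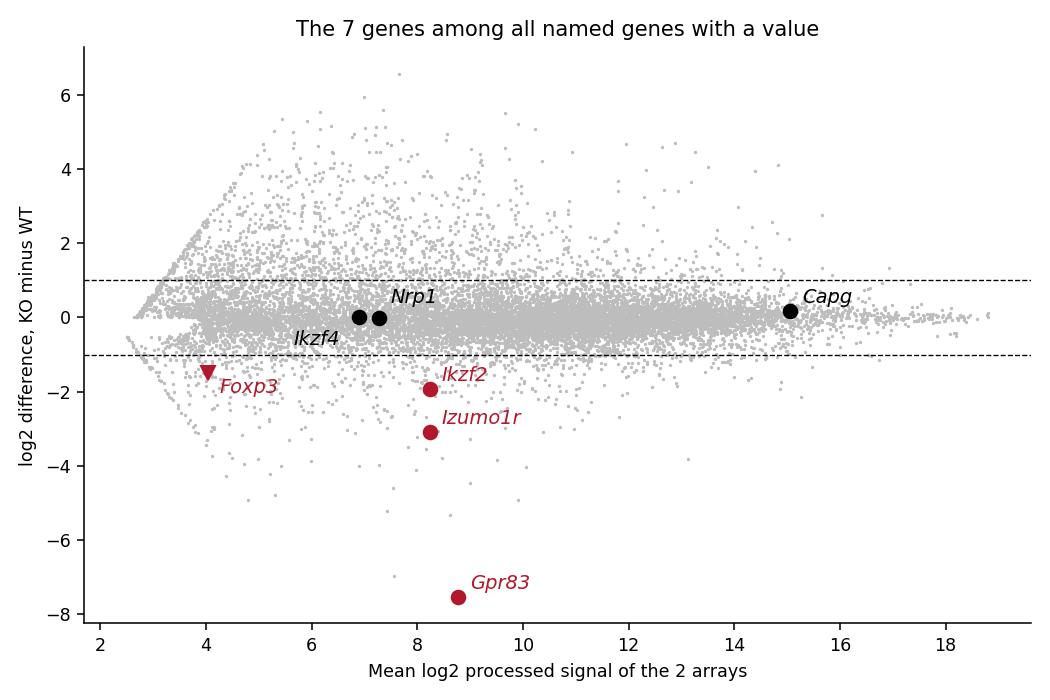
Log2 difference (KO minus WT) against mean log2 processed signal of the arrays for 13515 named genes (grey) with the 7 genes marked, red where at least 2-fold lower, a triangle for the bound of Foxp3. Dashed lines mark a 2-fold difference; Gpr83 at -7.55 lies below every other gene, and Ikzf4, Nrp1 and Capg lie between the lines.

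Of 37 other genes used to describe regulatory T cells, 33 had a value: in KO 12 of these were 2-fold or more higher and 4 lower. The other 17 were under 2-fold, and the list median was 0.65. Over all genes, too, more were higher (10.8%) than lower (5.14%). Penk, encoding the enkephalin precursor, had 46155 in KO and 2058 in WT (log2 difference 4.47), Il10, encoding an anti-inflammatory cytokine, 711 in KO and 41.8 in WT (4.07), and Klrg1, encoding an inhibitory receptor, 269 in KO and 29.3 in WT (3.19). The lower ones were led by Nt5e, encoding the ecto-nucleotidase CD73, with 60.4 in KO and 1035 in WT (-4.11). Entpd1, encoding the ecto-nucleotidase CD39, had 2689 in KO and 328 in WT (3.02), so the pair of enzymes went opposite ways.

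The surface markers on the list were mostly above 0, with Nt5e (-4.11), Cd83 (-0.40) and Ctla4 below it. Of all 33 genes of the list with a value, 24 were above 0. The IL-2 receptor alpha gene Il2ra had a log2 difference of 0.53, the inhibitory receptor gene Ctla4 -0.05, and the TNF receptor family genes Tnfrsf18 and Tnfrsf4 0.26 and 0.12. All of these 4 are also induced by activation in other CD4 T cells. Other genes of surface proteins on the list were at least 2-fold higher, such as Itgae (2.96), Lag3 (2.07), Tnfrsf9 (1.99) and Ccr8 (1.87). Both sets of 4, and Cd83, were chosen after their values were seen. Lrrc32, Tigit and Itgb8 had no named probe.

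**Figure D4:**
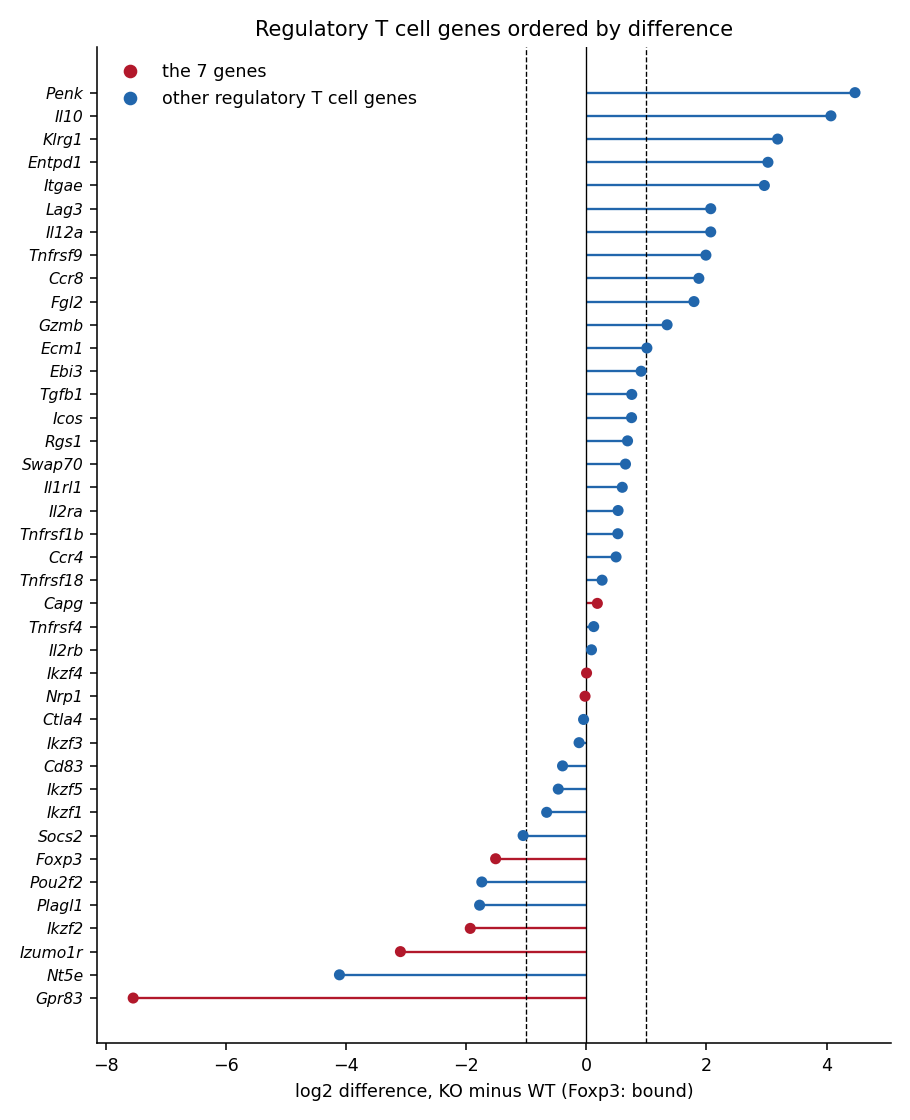
Log2 difference (KO minus WT) of the 7 genes (red) and 33 other regulatory T cell genes (blue), ordered from highest to lowest; dashed lines mark a 2-fold difference and the value of Foxp3 is a bound. Gpr83 (-7.55), Izumo1r (-3.10), Ikzf2 (-1.93) and Foxp3 (-1.51) are in the lower part with Nt5e (-4.11), and Penk (4.47) and Il10 (4.07) are at the top.

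Of 39 listed factors that bind, induce or restrain Foxp3, 37 had a value: 7 were 2-fold or more lower and no gene was that much higher, against 5.14% lower and 10.8% higher over all genes. Another 29 were under 2-fold, 1 had a bound under 2-fold, and the list median was -0.43. The 4 largest were Tcf7, encoding TCF-1 (110 in KO, 2413 in WT, log2 difference -4.47), Nfatc2, encoding an NFAT factor (29.9 in KO, 478 in WT, -4.01), Bach2, encoding a repressor of effector genes (604 in KO, 4643 in WT, -2.96), and Foxp1. The probes of Nfatc2 disagreed in size, since another of the 3 gave -0.21. Bcl11b (-2.09), Lef1 (-1.36) and Runx1 (-1.04, but -0.40 by its other probe) made up the 7. Above 0 were 4 of the 37, Gata3 (0.84), Hif1a (0.81), Nr4a2 (0.60) and Irf4 (0.30). For the receptor Gpr83, the gene of its proposed ligand precursor, Pcsk1n, had a log2 difference of 0.31, and the interacting receptor gene Gpr171 had -0.19.

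Markers of other cell types were read because some of them also carry these transcripts, such as Nrp1 in plasmacytoid dendritic cells and Capg in macrophages. Of 8 dendritic cell markers 7 had a value, 1 of them at least 2-fold higher (Itgax, 623 in KO and 20.0 in WT), and Siglech, a defining marker of plasmacytoid cells, fell short of that mark on both arrays. The brightest were Bst2 (46802 in KO, 35598 in WT) and Irf8 (6581 in KO, 7121 in WT), which T cells also express, and the summed signal was 54614 in KO and 43168 in WT. Of 8 macrophage markers 6 had a value and 2 were at least 2-fold higher, with a sum of 563 in KO and 363 in WT. The brightest were Cd14 (256 in KO, 35.0 in WT) and Mpeg1 (107 in KO, 165 in WT), while C1qa and Itgam were not well above background.

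Natural killer and CD8 T cell markers had 5 of 7 at least 2-fold higher and 1 lower, with a sum of 10854 in KO and 2459 in WT, led by Fcer1g (5087 in KO, 669 in WT) and Cd8a (3213 in KO, 312 in WT). Mast cell and basophil markers had 3 of 5 higher, with a sum of 654 in KO and 107 in WT, led by Cpa3 (367 in KO, 28.2 in WT) and Mcpt8 (162 in KO, 13.7 in WT). B cell markers had 1 of 5 higher, with a sum of 1622 in KO and 928 in WT, led by Cd79b (1155 in KO, 665 in WT) and Ms4a1 (266 in KO, 131 in WT). Pax5 and Blk, also of B cells, were not well above background. Endothelial and stromal markers had 1 of 4 lower, with a sum of 505 in KO and 387 in WT, led by Pecam1 (320 in KO, 202 in WT) and Col1a2 (157 in KO, 142 in WT). Beside these counts for other cell types, 10.8% of all genes with a value were at least 2-fold higher and 5.14% lower. Each sum adds signals of different probes, so its bright genes weigh most. The list medians were 0.38 for dendritic cells, -0.19 for macrophages, 2.27 for natural killer and CD8 T cells, 1.22 for mast cells and basophils, 0.73 for B cells and 0.12 for endothelial and stromal cells, and the part of other cells in the differences of the 7 genes was not tested.

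Gpr83, Izumo1r and the brightest Ikzf2 probe kept their sign under every processing tried. Foxp3 stayed below 0 wherever it had a value. For a probe measured in WT only, a bound above 0 was given no value. The sign of the bounds of Foxp3 and of the 2 Ikzf2 probes measured in WT only was thus set in advance. Foxp3 had no value where both arrays had to be well above background. Over the settings, the log2 difference ranged from -7.62 to -5.77 for Gpr83, from -3.17 to -2.45 for Izumo1r, from -2.01 to -1.57 for the brightest Ikzf2 probe and from -1.90 to -0.51 for Foxp3. The probes of Ikzf4 and Nrp1 changed with the background correction: normexp on the backgrounds as given put the 3 probes of Ikzf4 at -0.54, -0.41 and -1.05 and the 2 of Nrp1 at -0.43 and -0.39. The same correction with 6 aberrant WT backgrounds replaced gave -0.08, 0.16 and -0.19 for Ikzf4 and -0.03 and 0.15 for Nrp1. It put the dimmer Ikzf2 probes at -0.74, -0.24 and -0.56, all under 2-fold. The 50 that normexp adds to every signal shrinks the differences of dim probes. The low values of these probes and of Foxp3 thus cannot be put down to the background alone. Capg stayed between 0.11 and 0.46.

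**Figure D5:**
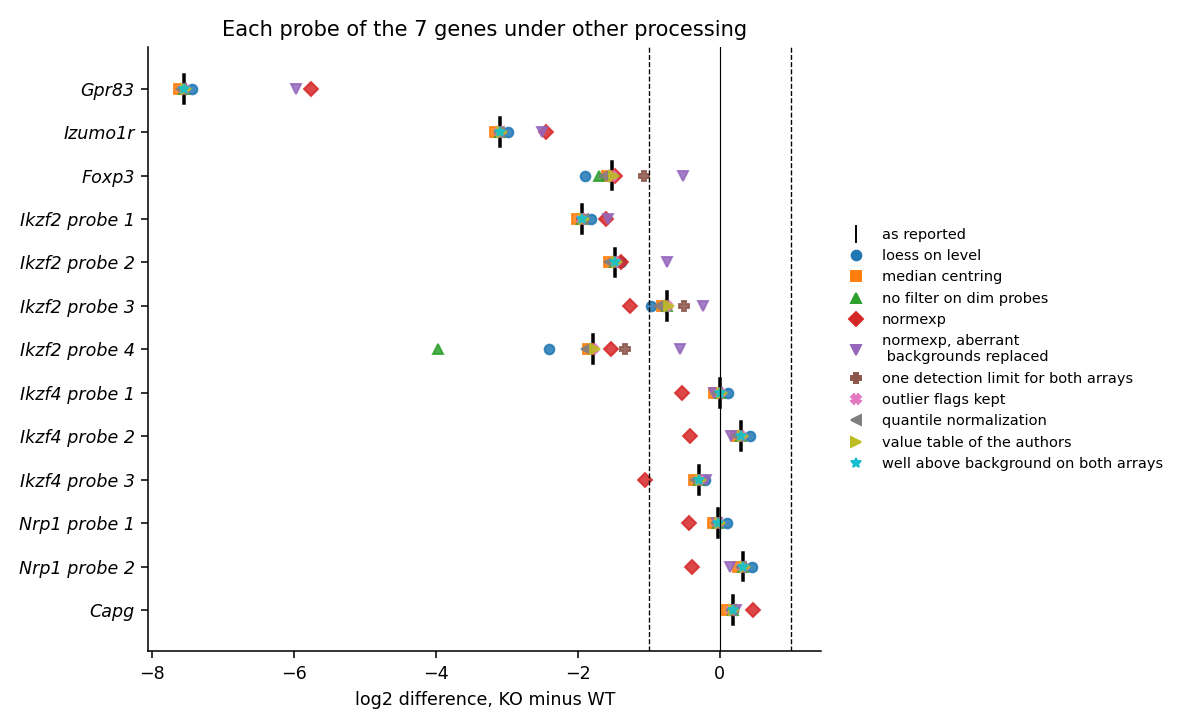
Log2 difference (KO minus WT) of the 13 probes as reported (black bar) and under other processing (coloured symbols); probes of a gene are numbered from the brightest, and dashed lines mark a 2-fold difference. Gpr83 stays at or below -5.77 and Izumo1r at or below -2.45, while Foxp3 reaches -0.51 under normexp with aberrant backgrounds replaced, where the added offset shrinks dim differences.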

How the data were processed

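RNA of Menin KO and Menin WT CD4 T cells, grouped by genotype label, was read on 2 Agilent arrays of 1 slide. Per the file headers, the deposited intensity values are Feature Extraction 10.7.3.1 processed signals (10.7 in the submitters' processing notes), background-subtracted, detrended, annotated on mm9 and unscaled between arrays. The table of values deposited by the authors is in log2 units. On each array 99.7% of its probes differed from the log2 processed signal by 1 constant to within 0.01, which settles scale, centring and direction. Its medians were -3.90 for KO and -3.97 for WT.

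Spots with outlier flags were left out (103 on KO, 115 on WT; none saturated), log2 signals were centred on the 75th percentile (650 on KO, 644 on WT), and spots of a probe were averaged. A gene took its brightest probe measured on at least 1 array. A bound set the bright signal against the lowest signal well above background, or against the dim probe's own signal where that was higher. Names came from RefSeq (27043 probes had 1 symbol, 14121 none). The size rule was 2-fold, with no test.

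The 7 genes and the lists were chosen with earlier results of these data known. Named genes were the 7 genes, Men1, Bach2, up to 4 largest differences per list, families in full, the 2 brightest markers per other cell type and neighbours in order of difference. Chromosome neighbours, and other genes that complete a count, were named after their values were seen. Alternatives comprised normexp (limma 3.58.1, offset 50, on median spot signals), quantile, median and loess scaling, the value table, the mean over probes, outlier flags kept, other size rules and filters on dim probes. The size rule was tried on data simulated from the WT array with spot noise only. Such data hold no biological variation, so the trial does not bear on how far the reported differences would repeat. The number of arrays limits the precision.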

Additional observations from a re-analysis of the deposited data

How the results depend on the processing

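Of the 7 genes, 4 were at least 2-fold lower under most settings, 3 after normexp with aberrant backgrounds replaced (Foxp3 at -0.51, where the added offset of 50 shrinks dim differences) and 3 among genes measured on both arrays, which leaves Foxp3 out by construction. At a 4-fold size rule 2 were lower (Gpr83 and Izumo1r). None of the 7 was at least 2-fold higher under any of the 13 alternatives. Over all genes, the counts of 1459 higher and 694 lower became 601 and 1701 after normexp, 760 and 369 with aberrant backgrounds replaced, 2339 and 1712 at 1.5-fold, and 542 and 158 at 4-fold, and 2121 and 1113 with no filter on dim probes. The share of higher genes among those called was 67.8%, and 26.1% after normexp, whose fitted WT background of -140.5 became -12.9 once 6 spots with a local background over 200 were replaced. The median of mast cell and basophil markers, 1.22, was -0.11 after normexp and 0.86 with aberrant backgrounds replaced. For B cell markers the median of 0.73 became -0.0098 and 0.50 under these 2 settings. For macrophage markers the median of -0.19 became -0.89 and -0.26. The cause was not tested. No paired analysis was possible because each group has 1 array, and no array could be left out. Dim signals limit Foxp3 and 2 of the 4 Ikzf2 probes, which were not well above background in KO.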
